A study of Mus musculus with 60 samples.

Results

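IL6-iHPCs-clone-1 (P20) are proliferating, progenitor-like cells that grew out of a single mouse hepatocyte in medium with IL6 and were kept for 20 passages, and IL6-iMHs-clone-1 (P20) are the hepatocyte-like cells labelled as the matured form of this clone. The 3 samples of each were compared gene by gene, and a change is always IL6-iMHs minus IL6-iHPCs unless another pair is named. Of the 19355 genes in the table of cell samples, the 10849 that reached 1 FPKM (mapped fragments scaled to transcript length and sequencing depth) in 3 or more of these 6 samples were tested, and 922 of them reached it in exactly 3. The table holds 33 samples in 11 groups of 3, which are fresh hepatocytes, the first culture at days 3 and 14, and the IL6-iHPCs and IL6-iMHs of 4 lines, mouse-1 (P10), mouse-2 (P10), mouse-1 (P35) and clone-1 (P20). For every group the labels give liver as the tissue, C57BL/6 as the strain and WT as the genotype, with no age, while the study describes its single-cell clones as derived from mice whose hepatocytes carry a tdTomato reporter switched on by albumin-Cre. The IL6-iHPCs were grown in medium with IL6, EGF, HGF and dexamethasone, and for maturation they were moved to a medium without the first 3 factors, with oncostatin M (OSM) and with a higher dose of dexamethasone. The repeats within a group are technical ones per the study, and the line is a single clone, so every p-value below covers the spread between repeats and not that between clones or mice.

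Hepatocytes make most plasma proteins, clear ammonia through the urea cycle, oxidize drugs with cytochromes P450 and conjugate them for excretion. When they are driven to divide in culture they tend to lose these functions and take up keratins and secreted proteins of bile duct cells, a state often called a hepatic progenitor. IL6 and OSM both signal through the shared receptor chain gp130 (Il6st) and the transcription factor STAT3, EGF and HGF signal through receptor tyrosine kinases to MAPK, and dexamethasone activates the glucocorticoid receptor (Nr3c1).

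The genes on the Y chromosome put the pairing of the clone-1 samples in doubt and are given first. Reads on Ddx3y, Eif2s3y, Kdm5d and Uty summed to 9095, 6883 and 6575 in the 3 IL6-iHPCs-clone-1 samples and to 0 in all 3 IL6-iMHs-clone-1 samples, while the 3 hepatocyte samples held 994 to 1550. Depth was similar, with about 75400000, 63500000 and 60800000 reads on genes in the IL6-iHPCs and 56400000, 60200000 and 65700000 in the IL6-iMHs, in the same order. The other 3 lines held at most 2 such reads in any sample, before or after maturation. Whether the IL6-iHPCs and IL6-iMHs labelled clone-1 come from the same clone is therefore not certain, and a loss of the Y chromosome cannot be told apart from a different origin of the cells. For this reason the IL6-iMHs were also set against the mean of the IL6-iHPCs of the other 3 lines, a comparison chosen after the Y-linked values had been seen. Maturation, rises and falls of clone-1 below name the difference between the labelled groups. The effect of the medium was not tested apart from the origin of the cells.

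Gene levels by chromosome also separated the clone-1 groups. Over 191 genes of chromosome 16 with at least 3 FPKM in hepatocytes, the median difference from hepatocytes, relative to that of all genes and on the log2(FPKM + 1) scale, was 0.547, 0.514 and 0.472 in the IL6-iHPCs and 0.058, 0.036 and -0.001 in the IL6-iMHs. Over 393 genes of chromosome 4 it was -0.810, -0.806 and -0.788 in the IL6-iHPCs and -0.443, -0.424 and -0.424 in the IL6-iMHs. The 3 samples of a group lay close together and the groups did not overlap on either chromosome. In the IL6-iHPCs of mouse-1 (P35) the chromosome 4 value was also low, at a mean of -0.737. On maturation 147 of 338 tested genes of chromosome 16 fell and 11 rose, with a median change of -0.93. On chromosome 4, 63 of 633 fell and 56 rose, with a median of -0.14. DNA copy number was not measured in these samples. The study reports a normal diploid karyotype for its tdTomato-labelled clone-1 progenitors at P20, and whether those cells match the samples here was not tested. Without chromosomes 4, 16 and Y, 651 genes rose and 1964 fell among 9874.

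**Figure D1:**
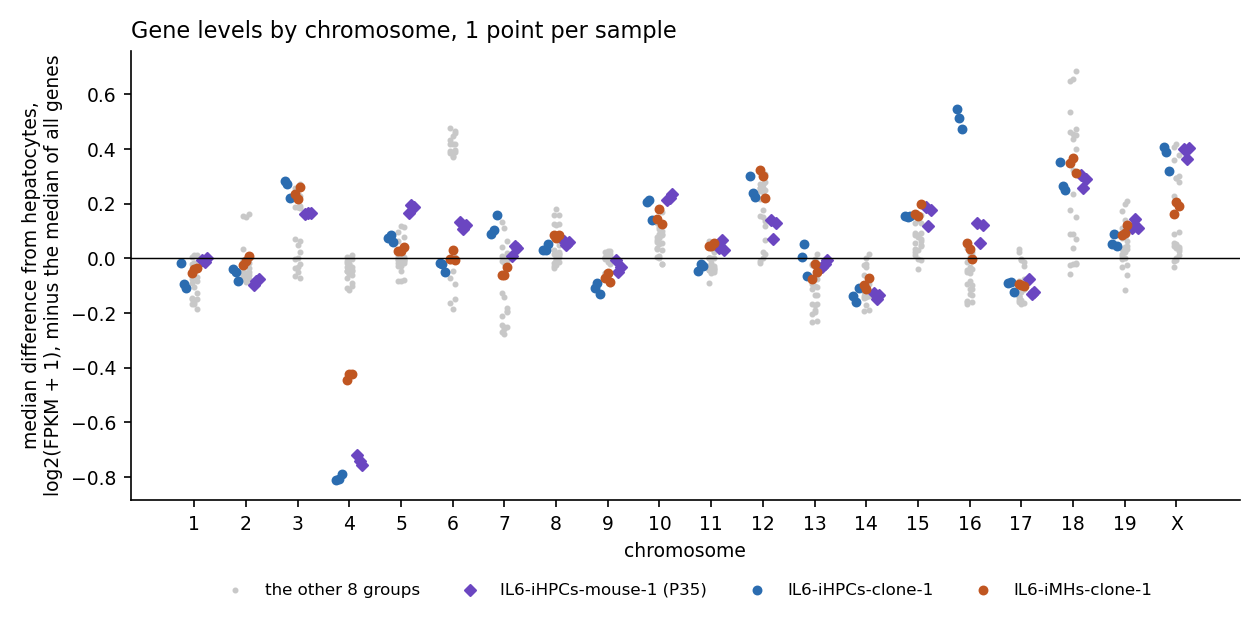
Median difference from hepatocytes over the genes of each chromosome, minus the median of all genes, on the log2(FPKM + 1) scale (y axis), with 1 point per sample and the chromosomes on the x axis. The 3 IL6-iHPCs-clone-1 samples (blue) stand at 0.472 to 0.547 on chromosome 16, away from the IL6-iMHs-clone-1 samples (red) and all other groups, and at -0.810 to -0.788 on chromosome 4, near the IL6-iHPCs of mouse-1 (P35) (purple).

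Both groups held the defining genes of hepatocytes, and most markers of blood, endothelial and stellate cells were under 1 FPKM, while biliary markers were abundant. Of 10 hepatocyte markers, 9 in the IL6-iHPCs and 10 in the IL6-iMHs reached 1 FPKM, and their summed level was 9953 to 11250 FPKM in the IL6-iHPCs, 59770 to 63710 in the IL6-iMHs and 59670 to 67000 in hepatocytes. Albumin made up most of this sum in the IL6-iMHs and hepatocytes, as its values below show, so the sum says little about the other markers. The 7 biliary and progenitor markers summed to 4788 to 5645 FPKM in the IL6-iHPCs, 1367 to 1487 in the IL6-iMHs and 4.09 to 4.39 in hepatocytes. In longer lists, 1 of 18 Kupffer cell and macrophage, 3 of 18 endothelial, and 2 of 18 stellate cell and fibroblast markers passed the filter of 1 FPKM in 3 samples, all named here after their values had been seen. The lysosomal macrophage marker Cd68 rose from 7.98, 8.31 and 9.55 to 19.8, 20.2 and 18.2 FPKM, with 0.671 in hepatocytes, the matrix protein gene Ecm1 fell from 28.0, 30.4 and 34.4 to 15.8, 14.8 and 13.3 FPKM, and the endothelial markers Stab1, Egfl7 and Oit3 did not reach 2-fold. The other stellate cell marker was Dcn. Of the defining markers of each type, none of the 10 Kupffer cell, 7 endothelial, 5 red blood cell and 4 lymphocyte markers reached 1 FPKM in any clone-1 sample, and the Kupffer cell markers Clec4f and Vsig4 were at 0 in all 6. In the hepatocyte samples 7, 5, 5 and 2 of these markers reached it, with sums of up to 24.65, 18.95, 123.7 and 4.81 FPKM. RNA of such cells could enter the hepatocyte values, which was not tested. Of 7 stellate cell markers 1 passed 1 FPKM in the IL6-iHPCs, Dcn at 3.3, 3.19 and 4.25 FPKM, and none in the IL6-iMHs.

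The clone-1 IL6-iMHs had a larger part of their reads on a few abundant genes than the clone-1 IL6-iHPCs. Of the 10849 genes, 718 (6.62%) rose and 2178 (20.1%) fell with an adjusted p-value below 0.05 and a change of 2-fold or more on the log2(FPKM + 1) scale, which understates the change of low genes. In all, 9410 genes (86.7%) had 3 IL6-iHPC values that did not overlap the 3 IL6-iMH values, so a lack of overlap alone says little here. Genes near 0 in the IL6-iHPCs, such as Cyp2a12, Cyp2d9, Arg1, Gys2, Hrg and Tat below, passed the filter only through the IL6-iMHs. The filter thus favors their rises, and in reverse it favors falls of genes near 0 in the IL6-iMHs. Genes near 0 in both groups enter no count or median below. The IL6-iMHs had 10.6%, 11.4% and 11.1% of their reads on albumin (Alb), against 0.843%, 0.733% and 0.852% in the IL6-iHPCs. The 10 most abundant genes took 21.1% to 21.4% of reads in the IL6-iMHs and 6.23% to 6.68% in the IL6-iHPCs. The median change of all genes was -0.45, and it was -0.06 after quantile normalization, where 1084 genes (9.99%) rose and 1058 (9.75%) fell. The excess of falls over rises therefore depends on the scaling, and counts after quantile normalization are given for each gene group where they differ by more than a few genes. In these bulk samples, fewer cells that express a gene and less of its RNA per cell cannot be told apart.

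**Figure D2:**
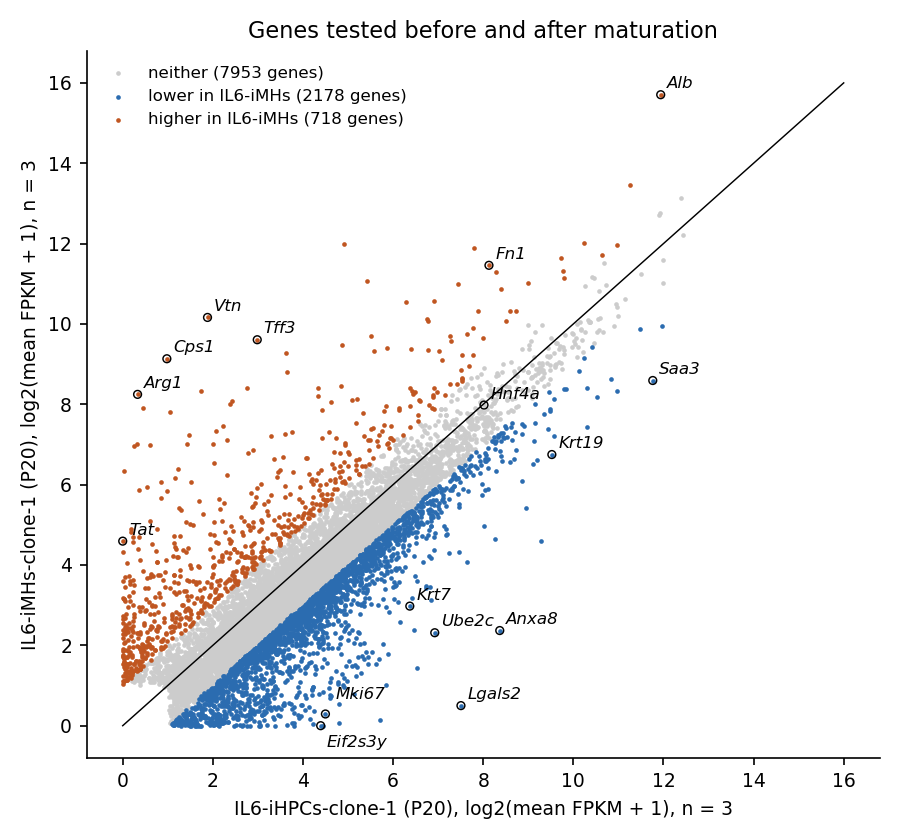
Mean level of each tested gene in IL6-iHPCs-clone-1 (x axis) and IL6-iMHs-clone-1 (y axis), both as log2(mean FPKM + 1) over 3 samples, with genes that rose in red (718), genes that fell in blue (2178) and the line of equal levels in black. Alb, Vtn, Cps1 and Arg1 lie far above the line, Lgals2, Anxa8 and Krt7 far below it, and Hnf4a on it.

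Plasma proteins rose most. Of 42 tested secreted plasma proteins 29 rose and 4 fell, with a median change of 2.33 against -0.45 over all genes. Alb, the main protein of plasma, was at 4087, 3554 and 4134 FPKM in the IL6-iHPCs and 51422, 55161 and 53744 in the IL6-iMHs, a change of 3.77 ± 0.11 (SE, n = 3 per group, adjusted p = 7.8e-23, limma), and at 47356, 48923 and 53749 in hepatocytes. As deposited, the IL6-iMH values thus lay at the hepatocyte level. Levels relative to hepatocytes depend on the scaling, here and for each such comparison below. The median difference of all genes between the IL6-iMHs and hepatocytes was 0.75 as deposited and 0.13 after quantile normalization. Vtn, which codes for the adhesive plasma protein vitronectin, had the largest rise of all genes on the log2(FPKM + 1) scale, from 2.47, 2.39 and 3.19 to 1112, 1075 and 1246 FPKM (change 8.28 ± 0.09, adjusted p = 1.9e-33). Serpina3k, a serine protease inhibitor, went from 27, 28.7 and 31.8 to 3851, 3771 and 4512 FPKM (change 7.07 ± 0.10). Among the 4 that fell were Apom, an apolipoprotein of high-density lipoprotein, at 11.2, 10.6 and 13.6 and then 2.26, 2.11 and 2.28 FPKM, and the hormone Fgf21 at 9.28, 8.69 and 10 and then 0.756, 1.1 and 0.953. Both falls turned to higher levels when the IL6-iMHs were set against the IL6-iHPCs of the other lines, at 1.13 and 0.56.

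The promoters of Alb and Vtn are shown because both hold the letters GTTAAT, which were more frequent in the promoters of this group. The stretches are the 150 bases before the gene start, 5′ to 3′ on the gene's strand, from RefSeq on GRCm38.p6, with the motif on either strand in capitals. Alb lies at chr5:90460720-90460869 on the plus strand, with the motif 32 bases before the start, and Vtn at chr11:78498970-78499119 on the plus strand, with the motif 112 bases before it.
Alb: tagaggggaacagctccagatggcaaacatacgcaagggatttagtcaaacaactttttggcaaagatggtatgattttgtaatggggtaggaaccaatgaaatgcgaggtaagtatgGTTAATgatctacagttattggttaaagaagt
Vtn: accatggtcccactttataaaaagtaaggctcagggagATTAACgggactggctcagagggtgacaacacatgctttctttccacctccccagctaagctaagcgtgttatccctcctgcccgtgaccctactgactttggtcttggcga
Of 46 promoter windows of 37 plasma protein genes (250 bases before to 50 after the start), 28.3% held GTTAAT, against 5.47% of 18040 windows of 14464 genes in the table. AGAACA, the half-site of the glucocorticoid receptor, was in 43.5% against 14.9%, and CAAAGTCCA, an HNF4 site, in 0 windows against 0.51%. A match is a description of letters and not a site in use.

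Clotting and complement genes rose too. Of 39 tested, 25 rose and 1 fell, with a median of 1.35. F12, coagulation factor XII, went from 0.707, 1.35 and 1.17 to 225, 224 and 225 FPKM (change 6.78 ± 0.09, adjusted p = 1.6e-31). Complement component C4b went from 19.1, 18.9 and 19.4 to 368, 327 and 323 FPKM (change 4.08 ± 0.12). Pros1, the anticoagulant protein S, was the member that fell, from 92.3, 91.8 and 88 to 24.5, 25.5 and 24.3 FPKM (change -1.83 ± 0.10), and it lies on chromosome 16. Hrg, the plasma protein histidine-rich glycoprotein, also lies on chromosome 16 and was among the 10 largest rises, from 0.351, 0.136 and 0.256 to 126, 128 and 128 FPKM.

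Drug-metabolizing enzymes rose in part. Of 62 cytochromes P450 listed, 61 are in the table and 29 of these were tested, of which 20 rose and 2 fell, with a median of 1.78. Cyp2a12, a steroid hydroxylase, went from 0.414, 0.302 and 0.355 to 228, 231 and 257 FPKM (change 7.46 ± 0.10, adjusted p = 3.8e-31) and Cyp2d9 from 0.201, 0.324 and 0.0598 to 116, 122 and 136 (change 6.72 ± 0.11). These 2 genes stood at 46.7% and 12.1% of the hepatocyte mean, and both passed the filter only through the IL6-iMHs. The P450 genes that did not pass it are left out of the count of rises and of the median. Cyp51, an enzyme of cholesterol synthesis, fell from 148, 138 and 134 to 31, 32.4 and 28.3 FPKM and Cyp1a1, a target of the aryl hydrocarbon receptor, from 1.46, 2.08 and 1.85 to 0.292, 0.224 and 0.137.

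Some of the main P450 genes of hepatocytes stayed near 0. Cyp1a2, which metabolizes caffeine, was at 0, 0.0666 and 0.0522 FPKM in the IL6-iHPCs, 0.74, 0.369 and 0.571 in the IL6-iMHs and 298, 319.5 and 273 in hepatocytes, and did not pass the filter. Cyp2e1 (mean 0.0677 FPKM in the IL6-iMHs and 2733 in hepatocytes) and Cyp2c29 (0.396 and 637), both named after their values had been seen, did not pass it either. Cyp3a11, the chief CYP3A enzyme of mouse liver, was tested and rose from 6.21, 4.71 and 5.41 to 11.7, 15.4 and 11.3 FPKM (change 1.10 ± 0.14), with 704, 813 and 936 in hepatocytes.

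Among phase II enzymes, which attach sulfate, glutathione or glucuronic acid, 28 of 50 rose and 3 fell, with a median of 1.14, and 35 rose after quantile normalization. The sulfotransferase Sult1d1 went from 3.08, 3.71 and 2.75 to 152, 164 and 168 FPKM (change 5.28 ± 0.14), above the hepatocyte mean of 18.5. Glutathione transferase Gstm3 went from 0.916, 1.35 and 1.44 to 69.3, 72.3 and 72.3 FPKM (change 5.02 ± 0.18). The falls were led by Gsto1, an omega-class glutathione transferase, from 507, 534 and 596 to 91.7, 90.9 and 90.1 FPKM.

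Urea cycle and amino acid genes rose unevenly. Of 54 tested, 26 rose and 3 fell, with a median of 0.72. Cps1, which fixes ammonia in the first step of the urea cycle, went from 0.997, 1.08 and 0.842 to 572, 506 and 604 FPKM (change 8.15 ± 0.15, adjusted p = 7.7e-28). Arg1, the arginase that releases urea, went from 0.377, 0.171 and 0.223 to 287, 258 and 363 FPKM (change 7.91 ± 0.12). The IL6-iMHs held 79.9% of the hepatocyte mean for Cps1 and 27.3% for Arg1. Ass1, the argininosuccinate synthase between them, went only from 13, 13.7 and 15.3 to 44.4, 35.3 and 67.4 FPKM (change 1.69 ± 0.16), against 2248, 2267 and 1909 in hepatocytes, or 2.29% of their mean. Otc, the cycle's ornithine carbamoyltransferase, named after its values had been seen, was at a mean of 0.0986 FPKM in the IL6-iMHs and 150.3 in hepatocytes and was not tested.

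The tyrosine pathway was as uneven. Tat, the tyrosine aminotransferase and a classic glucocorticoid target, was at 0 in all 3 IL6-iHPC samples and at 22, 21.5 and 25.9 FPKM in the IL6-iMHs, at least 1210-fold higher than 3 reads per library would give. Hpd, the next enzyme, was at 0, 0 and 0.0121 and then 4.55, 3.5 and 6.46 FPKM, against 1713, 1720.5 and 1712 in hepatocytes. Fah, the last enzyme, changed by 0.33 ± 0.10 and did not reach 2-fold, with 81.9, 88.9 and 96.7 FPKM before and 113, 104 and 120.0 after. Such floors and all intervals on reads cover counting error only.

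Glucose genes differed by isoenzyme. Of 46 glucose genes 11 rose (23.9%) and 8 fell (17.4%), beside 6.62% and 20.1% over all genes, with a median of -0.12. The liver glycogen synthase Gys2 was at 0.0113, 0 and 0 FPKM in the IL6-iHPCs and 19.7, 18.6 and 19.2 in the IL6-iMHs (change 4.33 ± 0.07), while the form of other tissues, Gys1, fell from 20.5, 20.7 and 21.2 to 3.36, 3.4 and 3.16 (change -2.34 ± 0.08). The glucose transporter of hepatocytes, Slc2a2, went from 0.65, 0.888 and 0.838 to 64.6, 59.7 and 74.5 FPKM, which reached the hepatocyte values of 58.8, 64.4 and 64.4. Pkm, the pyruvate kinase of dividing cells, fell from 1461, 1417 and 1521 to 291, 286 and 297 FPKM (change -2.33 ± 0.06), still far above the 2.93 FPKM of hepatocytes. Of 42 genes of fatty acid oxidation and ketogenesis 11 rose and 1 fell, and 18 rose after quantile normalization. Cyp4a10, which hydroxylates fatty acids, went from 0.0318, 0.0604 and 0.118 to 15.2, 15.1 and 16.2 FPKM.

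Sterol and fatty acid synthesis went the other way. Of 45 genes 24 fell and 1 rose, with a median of -1.16, and 18 fell and 3 rose after quantile normalization. Idi1, of the mevalonate pathway, fell from 64.4, 54 and 51.8 to 6.34, 7.98 and 6.03 FPKM (change -2.89 ± 0.13) and Mvk, the mevalonate kinase, from 60.2, 62.3 and 65.8 to 9.38, 10.4 and 9.92 (change -2.55 ± 0.08). Both ended below the hepatocyte means of 11.8 and 23.8 FPKM. Dgat2, which completes triglycerides, was the 1 rise, from 47, 50 and 49.8 to 135, 139 and 134 FPKM.

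Bile acid genes and transporters moved less, with 10 of 29 higher, 4 lower and a median of 0.29. The largest rises were those of Slc27a2, a transporter and activator of long-chain fatty acids, from 0.265, 0.246 and 0.364 to 58.7, 56 and 58.5 FPKM, and Slc27a5, which activates bile acids for conjugation, from 0.865, 0.973 and 1.11 to 54, 55.5 and 60.4. They stood at 12.6% and 7.91% of the hepatocyte means. The copper pump Atp7b fell from 55.7, 54.7 and 46.3 to 12, 11.4 and 11 FPKM and the efflux pump Abcc4 from 25.5, 23.8 and 21.1 to 6.65, 7.42 and 5.37. Genes typical of periportal hepatocytes, near the incoming blood, rose in 17 of 26 with 1 fall and a median of 1.66. Pericentral genes rose in 6 of 17 with 1 fall and a median of 0.28, and 16 of the 33 listed did not pass the filter. Aldh1a1, a pericentral retinal dehydrogenase, rose from 58.6, 56 and 57.9 to 662, 678 and 679 FPKM, while Glul, the pericentral glutamine synthetase, was at 63.2, 67.6 and 64.7 and 56.6, 56.2 and 62.6 FPKM, a change of -0.15 ± 0.06 that was 0.16 after quantile normalization.

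**Figure D3:**
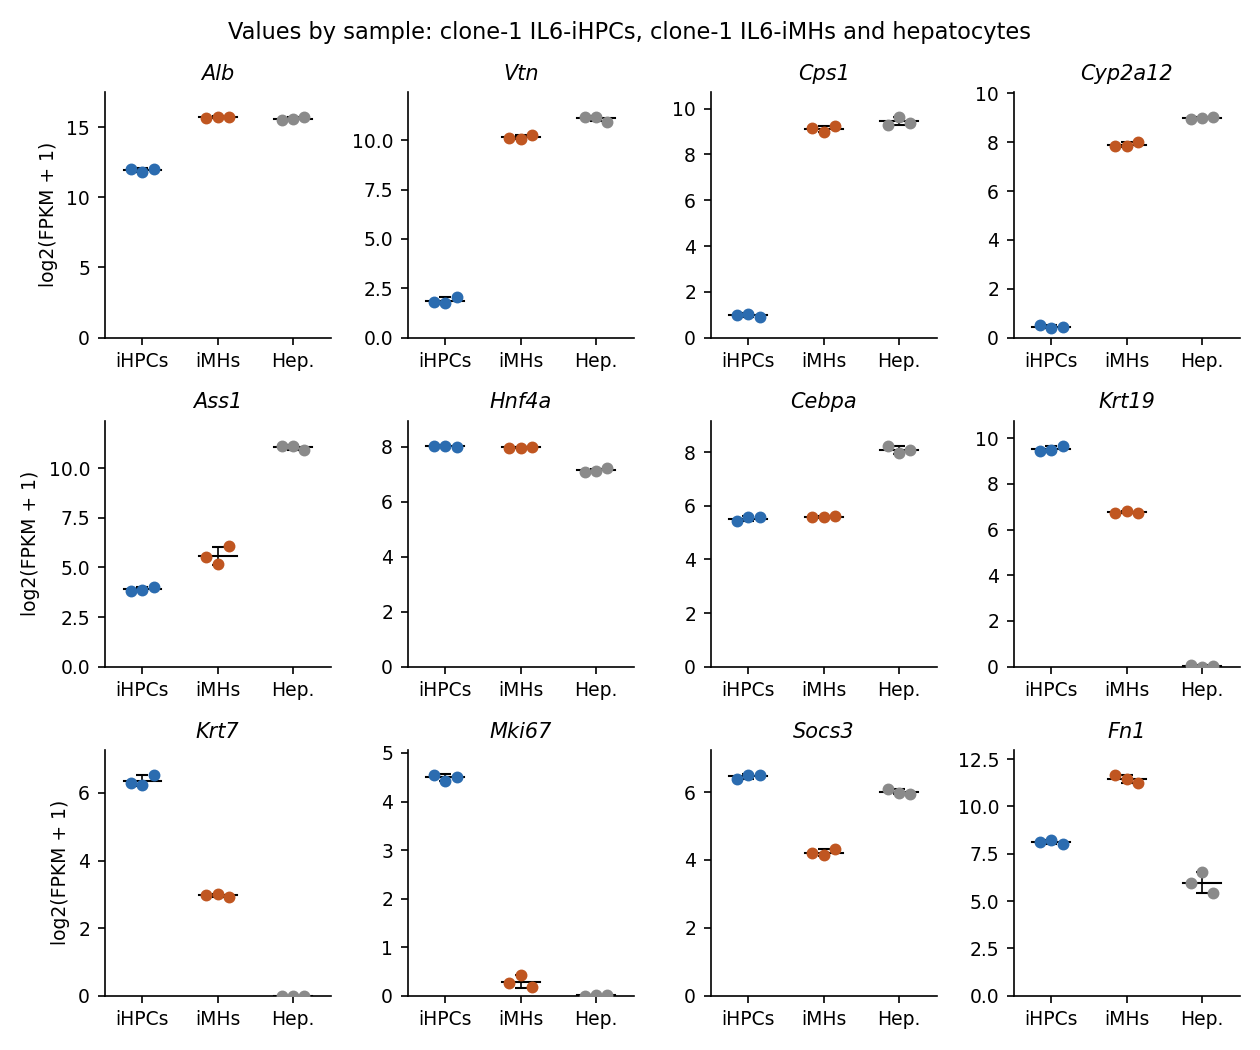
Level of 12 genes as log2(FPKM + 1) (y axis) in the 3 samples each of IL6-iHPCs-clone-1 (blue), IL6-iMHs-clone-1 (red) and hepatocytes (grey, Hep.), with each sample a point, the mean a line and the SD a bar. Alb and Cps1 in IL6-iMHs lie near the hepatocyte values, Ass1 and Cebpa far below them, and Krt19, Krt7 and Fn1 above them.

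Hepatocyte transcription factors rose and fell in equal number as deposited. Of 33 tested, 5 rose (15.2%) and 5 fell (15.2%), beside 6.62% and 20.1% over all genes. The share of falls thus lay below that of all genes, and the median was -0.06 against -0.45. After quantile normalization 6 rose and 3 fell, with a median of 0.12 against -0.06 over all genes. Hnf4a, the central regulator of hepatocyte genes, was at 260.3, 263 and 251 FPKM in the IL6-iHPCs and 250.2, 249 and 256 in the IL6-iMHs, a change of -0.04 ± 0.06 (adjusted p = 0.55) whose sign turned to 0.07 after quantile normalization. It lay above the hepatocyte values of 134, 139 and 147 in both groups, and the groups overlapped. Cebpa, a driver of hepatocyte metabolism, was at 41.8, 46.8 and 46.9 and 47, 46.4 and 48.4 FPKM (change 0.07 ± 0.08, adjusted p = 0.42), far below the 304, 249 and 268 of hepatocytes. Prox1 and Rora also overlapped between the groups.

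The rises were those of Nr5a2 (LRH-1), from 0.922, 1 and 0.847 to 13.3, 12.9 and 13.6 FPKM, Ppara, the receptor behind fatty acid oxidation, from 3.17, 3.92 and 2.46 to 23.9, 21.8 and 23.1, and Foxa3, from 11.9, 12.7 and 11.7 to 53.6, 54.6 and 51.7. Onecut1 (HNF6) rose from 4.01, 3.75 and 3.07 to 15.7, 15.7 and 16.8 FPKM, although against the IL6-iHPCs of the other lines its difference was -0.43. Nr1i3, the receptor CAR, reached 1.42, 1.17 and 1.31 FPKM, with a hepatocyte mean of 22.4. Among the 5 falls were those of Onecut2 (-1.74 ± 0.12), Cebpd (-1.38 ± 0.09), Foxa1 (-1.36 ± 0.10), and Nr1h3 (-1.09 ± 0.09), the receptor LXR alpha. Cebpd, a factor induced in the acute phase response, lies on chromosome 16, and its difference from the other lines' IL6-iHPCs was 0.40. Nr0b2 (SHP), Tbx3, Hlf and Esrrg did not pass the filter, and Nr0b2 stood at 74.2 FPKM in hepatocytes.

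Biliary and progenitor markers fell, and most stayed above the hepatocyte level. Of 32 tested 18 fell and 4 rose, with a median of -1.48. Against hepatocytes 20 of the 32 were higher in the IL6-iMHs, 0 lower and 12 neither, beside 39.7% higher and 8.28% lower over all genes. Krt19, a keratin of bile ducts, was at 681, 708 and 815 FPKM in the IL6-iHPCs and 104, 111 and 106 in the IL6-iMHs (change -2.77 ± 0.12, adjusted p = 1.1e-18), against 0.0512, 0 and 0.0308 in hepatocytes. Krt7, its partner in bile ducts, fell from 78, 74.9 and 92.4 to 6.93, 7.1 and 6.58 FPKM (change -3.39 ± 0.14) and Krt23 from 17.7, 15.7 and 17.5 to 0.104, 0.13 and 0.119 (change -4.00 ± 0.08). Sox9, a transcription factor of the biliary lineage, fell from 4.84, 4.82 and 4.33 to 1.09, 1.03 and 0.862 FPKM (change -1.51 ± 0.10), and the hepatocyte values were 1.4, 1.65 and 0.834. Sox4 rose instead, from 19.3, 17.3 and 13 to 77.2, 76.5 and 74.6 FPKM (change 2.15 ± 0.12), with a hepatocyte mean of 0.0296.

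These falls depend on which IL6-iHPCs are taken as the start. Against the IL6-iHPCs of the other 3 lines only 6 of the 32 were lower and 7 higher, with a median of -0.05, beside 12.9% lower and 8.43% higher over all genes in that comparison. Krt19 was then 0.74 and Krt7 1.94 higher in the clone-1 IL6-iMHs, so their direction turned, while Krt23 stayed lower at -2.02 and Sox9 at -3.29. The same holds for other large falls. The secreted protease inhibitor Wfdc2 fell from 585, 602 and 677 to 23.8, 22 and 23.9 FPKM (change -4.68 ± 0.16) and was 2.85 higher against the other lines, and the mucin enzyme Gcnt3 fell from 95.1, 92.1 and 87 to 1.66, 1.88 and 1.61 (change -5.09 ± 0.06) and was 0.99 higher.

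On the log2(FPKM + 1) scale, which ranks abundant genes first, the largest falls were those of Lgals2, galectin-2, from 169, 167 and 206 to 0.299, 0.505 and 0.437 FPKM (change -7.00 ± 0.17, adjusted p = 3.1e-25), and Anxa8, an annexin, from 317, 321 and 349 to 4.09, 3.76 and 4.65 (change -6.00 ± 0.10). Hkdc1, a hexokinase-like enzyme, fell from 51.6, 50.7 and 50.8 to 0.16, 0.104 and 0.0582 FPKM. Mmp13, a collagenase, was at 22.8, 18.2 and 20.9 FPKM before and at 0 in all 3 IL6-iMH samples, at least 1110-fold lower. S100a8, a calcium-binding protein best known from neutrophils, fell from 23.5, 26.7 and 30 to 0.0452, 0.0847 and 0 FPKM. All of these except S100a8, at 2.27, had hepatocyte means under 0.1 FPKM. Among fetal liver genes 8 of 15 fell and 1 rose, with a median of -1.15. The imprinted growth factor Igf2 fell from 15.1, 15 and 13.6 to 0.188, 0.138 and 0.244 FPKM (change -3.71 ± 0.08) and the imprinted adaptor Grb10 from 19.3, 19.6 and 14.9 to 0.285, 0.237 and 0.339 (change -3.87 ± 0.06). Against the IL6-iHPCs of the other lines, 6 of the 15 were higher and 1 lower, with Grb10 at 0.35 and Igf2 at -0.69.

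Cell cycle genes fell most uniformly. Of 80 mitosis genes 78 fell and 0 rose, with a median of -2.71, and 76 fell after quantile normalization. Mki67, the proliferation antigen Ki67, was at 22.5, 20.5 and 21.8 FPKM in the IL6-iHPCs and 0.192, 0.349 and 0.131 in the IL6-iMHs (change -4.21 ± 0.11, adjusted p = 4.5e-24). Ube2c, the ubiquitin enzyme of the anaphase-promoting complex, fell from 112, 116 and 133 to 4.64, 3.89 and 3.38 FPKM (change -4.61 ± 0.21). Foxm1, the transcription factor that drives mitosis genes, fell from 21.6, 20.1 and 20.6 to 0.913, 0.799 and 0.631 FPKM (change -3.61 ± 0.12). Of 59 DNA replication genes 53 fell and 0 rose, with a median of -1.90, and 42 fell after quantile normalization. Rrm2, which makes deoxynucleotides, fell from 481, 494 and 495 to 43.9, 41.5 and 40.7 FPKM (change -3.51 ± 0.08).

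Against hepatocytes, 23 of 80 mitosis genes were higher and 2 lower, with a median of 0.61, and 17 of 59 replication genes were higher and 2 lower. Over all genes 39.7% were higher and 8.28% lower in that comparison, so the share of higher genes in both groups lay below that of all genes. After quantile normalization 14 mitosis genes were higher and 3 lower, and 7 replication genes higher and 9 lower, beside 20.7% and 12.8% over all genes. Rrm2, at a mean of 42 FPKM in the IL6-iMHs, stood at 1.12 in hepatocytes. Against the IL6-iHPCs of the other lines 62 mitosis genes and 21 replication genes were lower in the clone-1 IL6-iMHs and 0 higher, and 39 and 10 were lower and 0 higher after quantile normalization, beside 8.03% lower and 9.98% higher over all genes.

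Promoters of Ube2c and Cdc20, both of the mitosis group, and of the replication gene Mcm6 are shown because motifs that were frequent in these groups can be read in them. Capitals mark TTTGAA (the CHR element) and CCAAT in Ube2c and Cdc20 and TTTGGCGC (an E2F site) in Mcm6, on either strand, and no marked motif overlaps another. Ube2c lies at chr2:164769779-164769928 on the plus strand, Cdc20 at chr4:118437344-118437493 and Mcm6 at chr1:128359706-128359855, both on the minus strand, each as the 150 bases before the start on the gene's strand.
Ube2c: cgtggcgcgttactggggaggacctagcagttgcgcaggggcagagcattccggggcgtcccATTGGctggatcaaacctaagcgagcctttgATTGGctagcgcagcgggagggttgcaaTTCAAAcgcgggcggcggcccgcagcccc
Cdc20: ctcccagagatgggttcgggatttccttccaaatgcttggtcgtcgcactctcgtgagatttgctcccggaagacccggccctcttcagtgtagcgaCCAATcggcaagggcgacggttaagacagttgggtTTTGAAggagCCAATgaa
Mcm6: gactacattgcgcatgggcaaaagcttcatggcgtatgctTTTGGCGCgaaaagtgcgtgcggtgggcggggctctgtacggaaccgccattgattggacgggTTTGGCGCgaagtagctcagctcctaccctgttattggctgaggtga
In Ube2c and Cdc20 the CHR letters begin 29 and 18 bases before the start. TTTGAA was in 67.6% of 71 windows of 65 mitosis genes against 13.7% of all windows, and CCAAT in 73.2% against 37.5%, with 55.4% in the replication windows. TTTGGCGC was in 14.3% of 56 windows of 47 replication genes against 0.743%, and TTTCCCGC, the other E2F form, in 14.3% against 1.53%. TTTGAA was in 16.1% of the replication windows, so these letters were frequent in the mitosis promoters and near the background in the replication promoters.

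Regulators of cell cycle entry fell in 22 of 47, with 1 rise and a median of -0.83, and in 15 after quantile normalization. Ccnd1 (cyclin D1), which couples growth factors to the cell cycle, fell from 281, 273 and 227 to 59.2, 57.2 and 55.6 FPKM (change -2.16 ± 0.09), against a hepatocyte mean of 2.23. Ccnd2 (cyclin D2) was the 1 rise, from 12.9, 12.3 and 10.2 to 25.9, 27 and 23.8 FPKM, and its difference from the other lines' IL6-iHPCs was -0.18. Ccng1, a cyclin G that p53 induces, fell from 209, 195 and 189.8 to 15, 17 and 15.3 FPKM (change -3.57 ± 0.09) and E2f8, a repressor of the late cycle, from 7.73, 8.08 and 7.74 to 0.236, 0.367 and 0.263. The transcription factors Mxd3, Barx2 and Elf3 differed among themselves. Mxd3 fell from 3.9, 4.65 and 5.42 to 0.518, 0.742 and 0.41 FPKM (change -1.86 ± 0.12), Elf3 changed by -0.45 ± 0.07 without reaching 2-fold, and Barx2 was at 5.76, 5.7 and 5.82 and 5.36, 3.44 and 6 FPKM, with overlap.

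**Figure D4:**
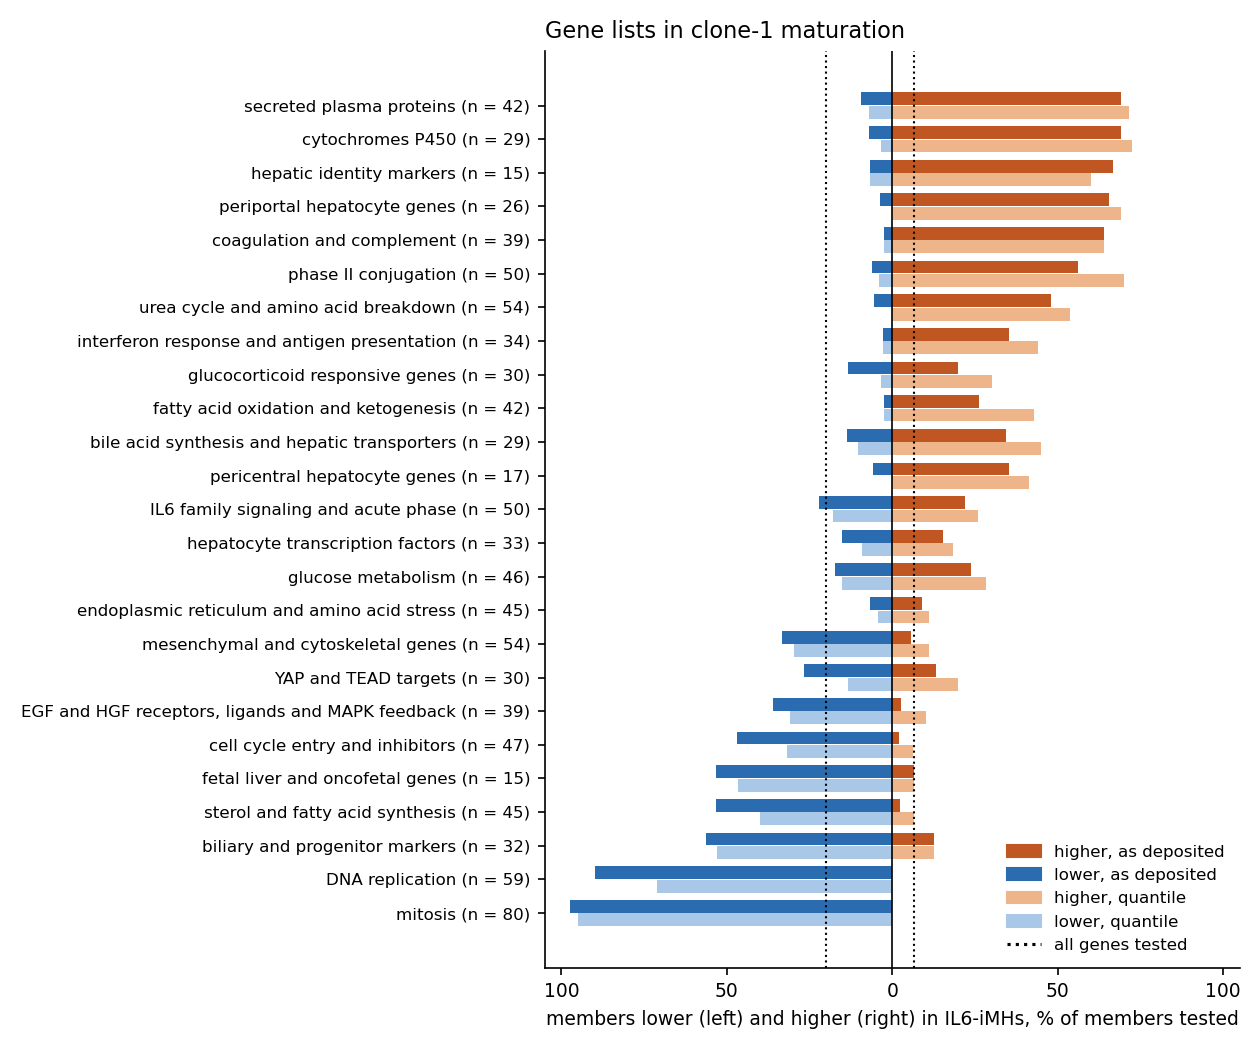
Share of the tested members of each gene list that were higher (right) or lower (left) in IL6-iMHs-clone-1, in % of members tested (x axis), from the values as deposited (dark bars) and after quantile normalization (light bars), with n the number tested. Dotted lines give the share over all 10849 genes, 6.62% higher and 20.1% lower as deposited. Mitosis and DNA replication genes lie at the bottom with 78 of 80 and 53 of 59 lower, and plasma proteins at the top with 29 of 42 higher.

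The receptor genes of IL6 and OSM and Stat3 stayed near their starting level in clone-1. Il6st (gp130) was at 33.4, 33.4 and 22.7 FPKM in the IL6-iHPCs and 33.5, 32.9 and 33.9 in the IL6-iMHs (change 0.18 ± 0.10, adjusted p = 0.078), the OSM receptor Osmr at 14.2, 14.3 and 13.2 and 15, 14.8 and 14.3 (change 0.07 ± 0.09, adjusted p = 0.43), and the groups overlapped for both. Stat3 changed by 0.22 ± 0.08 and Il6ra by 0.53 ± 0.10, neither reaching 2-fold. Socs3, the feedback inhibitor that STAT3 induces, fell from 82.1, 89.6 and 90.6 to 17.3, 16.6 and 19.1 FPKM (change -2.25 ± 0.07, adjusted p = 4.5e-23). Lifr, the receptor of leukemia inhibitory factor, went from 0.439, 0.488 and 0.367 to 1.8, 1.99 and 1.74 FPKM, with a hepatocyte mean of 103.

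Acute phase genes split. Of 50 genes of IL6 family signaling and the acute phase, 11 rose and 11 fell, with a median of 0.20. Crp, the C-reactive protein, rose from 4.41, 4.06 and 4.73 to 249, 259 and 309 FPKM (change 5.66 ± 0.11) and Itih4, an inter-alpha-trypsin inhibitor chain, from 5.58, 5.47 and 6.2 to 339.6, 314 and 361 (change 5.65 ± 0.13). The serum amyloid genes fell, Saa3 from 3304, 3298 and 3822 to 363, 378 and 414 FPKM (change -3.17 ± 0.25) and Saa2 from 168, 163 and 199 to 17, 18 and 21.8 (change -3.16 ± 0.15). Saa3 was 1.78 higher in the clone-1 IL6-iMHs than in the other lines' IL6-iHPCs, while Saa2 was lower there too, at -2.09. The serum amyloid genes are close copies of each other, so reads shared between them could move their levels.

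Of 30 glucocorticoid targets 6 rose and 4 fell, with a median of 0.53, and 9 rose and 1 fell after quantile normalization, with a median of 0.74. Igfbp1, an IGF-binding protein induced by glucocorticoids in liver, rose from 41.4, 40.2 and 44.7 to 2155, 2290.2 and 2018 FPKM (change 5.64 ± 0.08, adjusted p = 3.8e-31), far above the 69.4 of hepatocytes, and Tat rose as given above. Fkbp5, a cochaperone of the receptor and a direct target, was at 212, 227 and 204 and 221, 207 and 219.8 FPKM, with overlap, and a hepatocyte mean of 3.56. Tsc22d3 (GILZ) fell from 107, 118 and 109.8 to 53.3, 53.3 and 57.1 FPKM (change -1.02 ± 0.07) and Fam107a from 26, 28.5 and 26.3 to 9.72, 9.01 and 8.89. Nr3c1, the receptor itself, changed by -0.53 ± 0.11.

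Feedback genes of EGF and HGF signaling fell in part. Of 39 genes of this group 14 fell and 1 rose, with a median of -0.74. Dusp6, a phosphatase of ERK, fell from 71, 72.1 and 62.7 to 26.9, 27.7 and 21 FPKM (change -1.42 ± 0.08), Spry4, an inhibitor of the same pathway, from 5.13, 5.61 and 4.65 to 1.14, 1.07 and 0.922 (change -1.58 ± 0.08), and the AP-1 factor Fosl1 from 16.2, 17 and 17.9 to 3.46, 3.2 and 2.85. Etv5, another target of ERK, changed by -0.17 ± 0.06 and by 0.27 after quantile normalization. Egfr changed by 0.97 ± 0.09 and Met, the HGF receptor, by -0.90 ± 0.08, neither reaching 2-fold. Btc, the EGF receptor ligand betacellulin, was the 1 rise, from 7.95, 8.54 and 6.68 to 45.3, 48.9 and 41.2 FPKM. Against the other lines' IL6-iHPCs 11 of the 39 were higher and 6 lower, and Dusp6 was 0.44 higher.

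Genes of matrix, cytoskeleton and YAP signaling moved both ways, and most of the mesenchymal ones were higher than in hepatocytes. Of 54 mesenchymal and cytoskeletal genes 18 fell (33.3%) and 3 rose (5.56%), beside 20.1% and 6.62% over all genes, with a median of -0.54. In the IL6-iMHs 46 of the 54 were higher than in hepatocytes, beside 39.7% over all genes. Fn1, fibronectin, rose from 281, 299 and 256 to 3293, 2766 and 2386 FPKM (change 3.32 ± 0.24), but was -0.18 against the other lines' IL6-iHPCs. Serpinh1, the collagen chaperone, fell from 4.9, 5.61 and 5.64 to 0.0465, 0 and 0 FPKM. Of 30 targets of YAP and TEAD 8 fell and 4 rose, with a median of -0.59, and 4 fell and 6 rose after quantile normalization. Ctgf, a secreted matrix protein, rose from 3.45, 3.62 and 3.87 to 183, 186 and 160.5 FPKM (change 5.25 ± 0.11), with a hepatocyte mean of 0.026, and Tgfb2 from 0.614, 0.458 and 0.593 to 13.1, 12.4 and 12.5. The falls were led by Birc5 (survivin), which is also a mitosis gene, from 30.1, 28.1 and 32.8 to 1.29, 1.28 and 0.95 FPKM, and Nt5e from 9.08, 8.48 and 7.63 to 0.53, 0.705 and 0.527.

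Interferon and antigen presentation genes rose in 12 of 34, with 1 fall and a median of 0.53. Iigp1, an interferon-induced GTPase, went from 0.578, 0.439 and 0.571 to 30.7, 36.5 and 32.2 FPKM (change 4.48 ± 0.13), at the hepatocyte mean of 30.3, and Ifit1 from 0.0704, 0.0477 and 0.0249 to 5.78, 5.41 and 6.49. Ifi27 was the 1 fall, from 10.8, 10.3 and 11.7 to 0.5, 0.234 and 0.521 FPKM, with 305 in hepatocytes. Stress genes of the endoplasmic reticulum moved little, with 4 of 45 higher (8.89%) and 3 lower (6.67%), beside 6.62% and 20.1% over all genes. Chac1, which degrades glutathione under amino acid stress, rose from 25, 24 and 25.8 to 111, 121 and 104 FPKM and the cystine transporter Slc7a11 from 7.14, 6.44 and 4.96 to 16.4, 21.7 and 13.1.

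The change of clone-1 was then set beside that of the other 3 lines, which share no sample with it. Between IL6-iHPCs and IL6-iMHs, 1095 genes rose (10.1%) and 1758 fell (16.2%) in mouse-1 (P10), 1305 (12%) and 3341 (30.8%) in mouse-2 (P10), and 1100 (10.1%) and 4168 (38.4%) in mouse-1 (P35). After quantile normalization, 11.6% rose and 11.9% fell in mouse-1 (P10), 16% and 17.9% in mouse-2 (P10), and 15.6% and 18.2% in mouse-1 (P35). Of the 718 clone-1 rises, 299 (41.6%), 323 (45.0%) and 497 (69.2%) were also rises there, which is 27.3%, 24.8% and 45.2% of the rises of those lines. Of the 2178 falls, 512 (23.5%), 870 (39.9%) and 1655 (76.0%) were shared, or 29.1%, 26.0% and 39.7% of theirs. Over the 10849 genes Pearson's r between the changes was 0.355 with mouse-1 (P10), 0.367 with mouse-2 (P10) and 0.719 with mouse-1 (P35), where genes are not independent replicates. By this measure clone-1 was most like the line of high passage. In all 3 other lines 240 of the 718 rises and 411 of the 2178 falls recurred, 187 and 418 recurred in none, and 11 and 15 had the opposite call in all 3.

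Mitosis genes showed the same order of lines. Their median change was 0.06 in mouse-1 (P10), with 2 higher and 3 lower, -0.90 in mouse-2 (P10), with 3 and 34 (4 and 18 after quantile normalization), and -3.71 in mouse-1 (P35), with 0 and 77. Against the mean change of the 3 lines, the fall in clone-1 was larger for 52 of the 80 mitosis genes and smaller for 0, beside 14.5% lower and 11.5% higher over all genes in that test. Mki67 changed by -0.62, -3.12 and -4.35 in the 3 lines, and its difference was -1.51 ± 0.13. Biliary and progenitor markers fell in 6, 10 and 23 of 32 there and rose in 7, 3 and 3. These falls were 18.8%, 31.2% and 71.9% of members, beside 16.2%, 30.8% and 38.4% over all genes. As deposited, the P10 lines thus lay near the share of all genes. After quantile normalization the falls were 21.9%, 31.2% and 59.4%, beside 11.9%, 17.9% and 18.2%. Krt19 changed by 2.52, -0.46 and -2.25 and Krt7 by 1.71, 1.55 and 2.21.

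The gain of amino acid enzymes was smaller in clone-1. Of 54 urea cycle and amino acid genes 42, 41 and 40 rose in the other lines against 26 in clone-1, and the clone-1 change was lower for 28 and higher for 1 when the difference was tested. Ass1 changed by 10.05, 9.86 and 8.37 in the other lines, a difference of -7.73 ± 0.18 (adjusted p = 7.0e-25). Cyp3a11 changed by 7.19, 7.69 and 8.10 there (difference -6.57 ± 0.16) and Hpd by 8.38, 8.06 and 7.82 (difference -5.58 ± 0.13). Cebpa, which stayed level in clone-1, rose by 1.76, 2.64 and 1.64 in the others (difference -1.95 ± 0.09). Fatty acid oxidation rose in 16, 20 and 32 of 42 genes there against 11, and the difference was lower for 14 and higher for 1. This depends on the scaling, since after quantile normalization 10, 13 and 37 rose against 18 in clone-1, and the difference was lower for 4 and higher for 3, beside 11.6% each way over all genes.

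IL6 family, matrix and sterol genes differed the other way or in kind. Il6st changed by -0.87, -1.38 and -1.68 in the other lines, the first of these short of 2-fold, and Osmr by -3.59, -3.48 and -3.18. In clone-1 neither gene fell nor reached 2-fold (differences 1.49 ± 0.11 and 3.49 ± 0.10). Socs3 fell in all 4 lines, by -2.16, -2.09 and -3.97 in the others. Of 50 IL6 family and acute phase genes 19 were higher (38.0%) and 7 lower (14.0%) in the test of the difference, beside 11.5% and 14.5% over all genes. Fn1 changed by -2.27, -2.79 and 1.07 elsewhere, against its rise in clone-1 (difference 4.65 ± 0.28). Sterol synthesis genes fell in 8, 7 and 19 of 45 and rose in 4, 9 and 5 in the other lines, against 24 and 1 in clone-1. The falls elsewhere were 17.8%, 15.6% and 42.2% of members, beside 16.2%, 30.8% and 38.4% over all genes. In the difference 16 were lower and 2 higher. After quantile normalization 12, 7 and 12 fell (26.7%, 15.6% and 26.7%, beside 11.9%, 17.9% and 18.2% over all genes) against 18 in clone-1. The difference was then lower for 10 and higher for 3. Mvk changed by 0.34, 0.81 and -1.17 there (difference -2.54 ± 0.09).

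**Figure D5:**
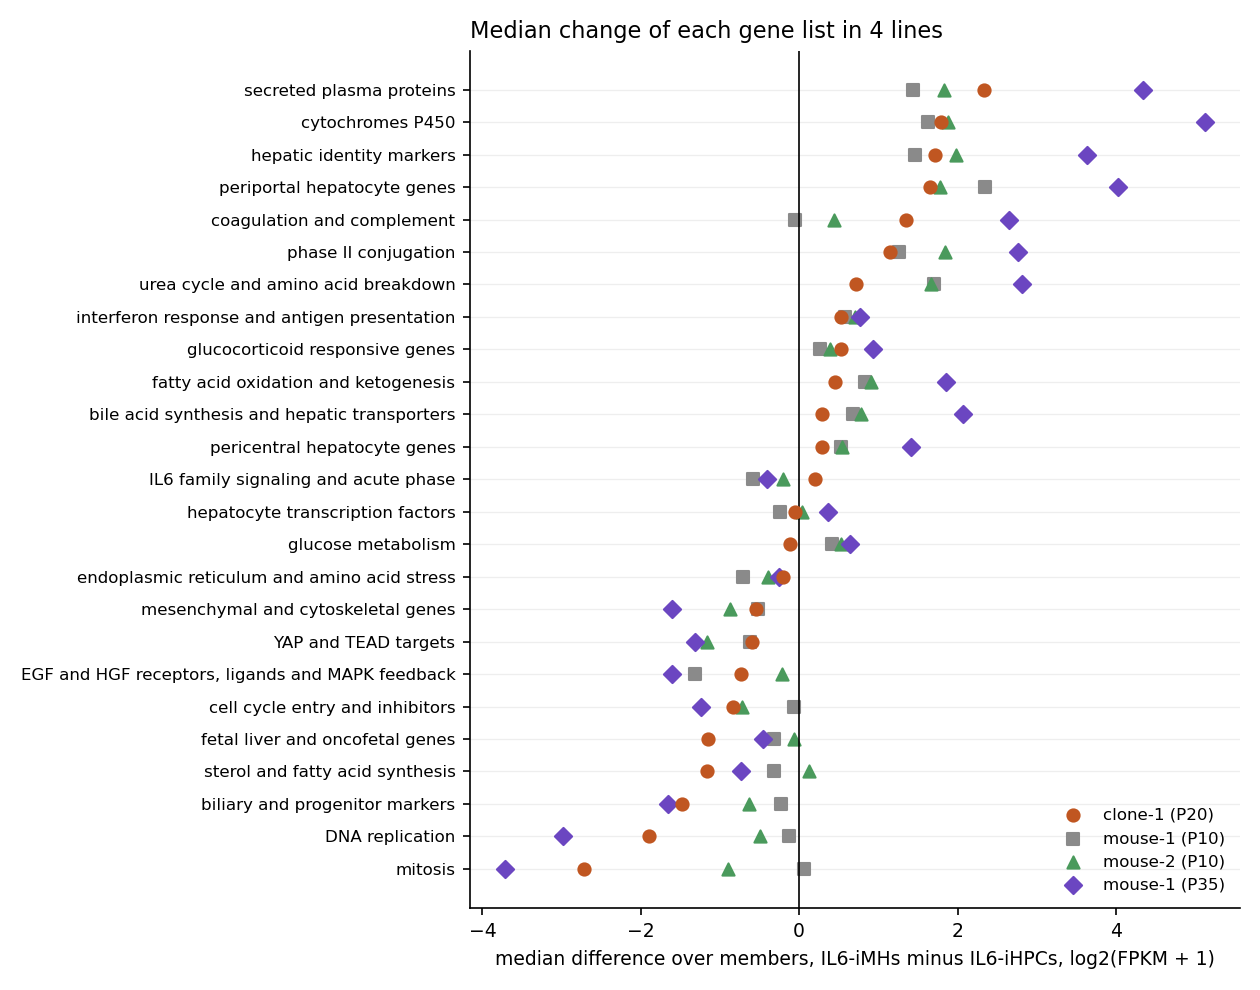
Median change of each gene list, IL6-iMHs minus IL6-iHPCs on the log2(FPKM + 1) scale (x axis), in clone-1 (red circles) and in the other 3 lines. Mitosis genes lie at -2.71 in clone-1 and at -3.71 in the mouse-1 line at P35, but at -0.90 and 0.06 in the P10 lines, and urea cycle and amino acid genes lie lower in clone-1 (0.72) than in the other lines.

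Against fresh hepatocytes, the clone-1 IL6-iMHs were higher in 4304 genes and lower in 898. The excess of higher genes depends on the scaling, with 2243 higher and 1391 lower after quantile normalization and 3036 and 2627 by voom on recovered reads. Plasma proteins were lower in 25 of 42 and higher in 1 (18 and 2 after quantile normalization), with a median of -1.46, where the IL6-iHPCs had been lower in 37 and higher in 2 with a median of -4.78, beside 8.38% lower and 58.3% higher over all genes. P450 genes were lower in 18 of 29 with a median of -1.86, against 21 and -3.97 before. The filter limits this comparison, since 29 of 61 P450 genes passed it, Cyp2a12 and Cyp2d9 only through the IL6-iMHs. Genes left near 0, such as Cyp1a2, Cyp2e1 and Cyp2c29, do not enter these values, and the same filter was applied to the other lists. Urea cycle and amino acid genes were lower in 44 of 54 with a median of -2.32, against 46 and -3.08 before. Coagulation and complement genes went from a median of -2.95 to -1.29 and phase II enzymes from -2.59 to -0.78. The major urinary proteins, secreted in bulk by mouse liver, stayed almost silent. Mup20 reached 3.82, 4.32 and 6.5 FPKM and Mup3 2.01, 2.89 and 2.03, with hepatocyte means of 2206 and 7498, and only 2 of the 21 in the table passed the filter. These genes are near-identical copies, so their separate levels are uncertain. Tff3, a trefoil peptide of mucous epithelia, went beyond hepatocytes, from 6.11, 6.46 and 8.19 to 736, 739.8 and 860.2 FPKM (change 6.63 ± 0.14), with 5.43, 5.24 and 5.65 in hepatocytes.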

How the data were processed

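The authors sequenced RNA of the cell samples and deposited 1 FPKM value per gene and sample, taken here as FPKM from the values. The submitters' processing notes name TopHat 1.4.1, Cufflinks 1.3.0 and mm10, without order or role. The tables of liver after partial hepatectomy and of cultures at day 7 were not used.

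The 2 symbols listed more than 1 time were averaged. Reads were recovered from the steps of the values, whole within 0.02 reads for 100% of the 18826 genes with any value, and give the depth behind each value (about 49300000 to 88800000 reads on genes per sample). All 33 samples entered 1 linear model of log2(FPKM + 1) (limma 3.58.1, R 4.3.3, variance trend on), with Benjamini-Hochberg adjustment of the p-values of 10849 genes. With 3 samples against 3 an exact permutation test cannot go below 0.10 and was not used. FPKM are scaled to the mapped fragments of a sample, so a few abundant genes can lower all others, and quantile normalization, TPM rescaling and voom on recovered reads were run as alternatives, beside a smaller pseudocount (0.1), filters at 0 and at 5 FPKM, other fold thresholds (none, 1.5 and 4), a replicate block, the 6 samples alone, and leaving out each sample. Comparison with the IL6-iHPCs of the other lines and leaving out chromosomes 4, 16 and Y were added after seeing the data.

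Named are the 10 largest rises and falls, the 2 largest of each list in each direction, genes the study names, the 6 highest and lowest differences from the other lines, hepatocyte transcription factors, sex chromosome genes and genes of the medium change, and some genes of this rule are not reported here. Members and lists were chosen with earlier results of these data known. Chromosomes came from RefSeq on GRCm38.p6 and matched 96.3% of tested genes. Self-test values with 200 genes changed in clone-1 maturation gave 66 of 66, 67 of 67 and 67 of 67 at log2 changes of 1.5, 2 and 3, with 0 wrong calls. Figures and tables used Python 3.11.15, numpy 2.4.6, pandas 2.3.3 and matplotlib 3.10.9.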

Additional observations from a re-analysis of the deposited data

Results flagged for a closer look

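The change on maturation was tested against the mean change of the other 3 lines, 2 of which are the same mouse, and 1248 genes were higher (11.5%) and 1568 lower (14.5%) in clone-1 by the limma test of this difference, with the thresholds used above. The clone-1 groups also differ in Y-linked reads and in the levels of chromosomes 4 and 16, and the part of these differences in the counts was not tested beyond leaving those chromosomes out of the maturation counts.

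Vtn had a difference of 4.91, since it rose by 8.28 in clone-1 and by 0.79, 1.37 and 7.96 in mouse-1 (P10), mouse-2 (P10) and mouse-1 (P35). The remaining high values were those of genes that rose in clone-1 and fell or moved less elsewhere. Sprr1a, a cornified envelope precursor of squamous epithelia, was at 2.42, 2.39 and 2.19 FPKM in the clone-1 IL6-iHPCs and 326, 335 and 307 in the IL6-iMHs, and changed by -2.97, -1.94 and -2.73 in the other lines, a difference of 9.15. Igfbp3, an IGF-binding protein, had a difference of 5.54, with a rise from 32.2, 33.5 and 33.5 to 291, 278 and 254 FPKM in clone-1 and changes of -2.08, -0.06 and -5.45 elsewhere. Iigp1 had a difference of 5.38 and changed by -1.20, -2.49 and 1.00 in the other lines. The scaffold protein Akap12 (4.93) and the transcription factor Sox4 (4.83) rose in clone-1 and fell in the others, Sox4 by -1.82, -2.95 and -3.27.

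The low values were those of genes with a smaller rise or a fall in clone-1. Ass1 (-7.73), Cyp3a11 (-6.57) and Hpd (-5.58) rose in clone-1 but much less than in the other lines. Ifi27 (-5.81), the unplaced gene LOC108168162 (-6.02) and the entry listed as 1-Mar (-5.96), whose symbol a spreadsheet had turned into a date, fell in clone-1. Since repeated symbols were averaged, the entry 1-Mar may not be a single gene, which was not tested. Ifi27 changed by 2.41, 3.50 and 2.28 in the other lines, LOC108168162 by 2.97, 2.99 and 3.85, and 1-Mar by 2.16, 2.64 and 3.53.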

How the results depend on the processing

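Direction and approximate size held for most values, and the limits are the scaling, the fold threshold and the starting cells. As deposited, 718 genes rose and 2178 fell, against 1084 and 1058 after quantile normalization, 1372 and 1428 by voom on recovered reads, 2006 and 7208 with no fold threshold, 1161 and 4511 at 1.5-fold, 266 and 401 at 4-fold, and 915 and 1397 against the IL6-iHPCs of the other lines. Leaving out 1 clone-1 sample gave 706 to 725 rises and 2138 to 2230 falls. The difference from the other lines (1248 higher, 1568 lower) was 2530 higher and 1087 lower after rescaling to TPM, so its balance turned. It was 4417 and 4367 with no fold threshold, 2674 and 2826 at 1.5-fold, and 148 and 302 at 4-fold. After rescaling to TPM, 787 genes rose and 3314 fell in mouse-1 (P10), 755 and 5162 in mouse-2 (P10), and 1010 and 5324 in mouse-1 (P35). Against the IL6-iHPCs of the other lines 809 were then higher and 2515 lower. Against hepatocytes (4304 higher, 898 lower) it was 2243 and 1391 after quantile normalization, 3036 and 2627 by voom, 7710 and 2064 with no fold threshold, 1355 lower at 1.5-fold, and 1484 and 364 at 4-fold.

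Fatty acid oxidation genes that rose numbered 18 after quantile normalization and 20 by voom. Voom also gave 15 falls in sterol synthesis, 22 rises in IL6 family genes, 11 falls in mesenchymal genes and 19 rises in interferon genes, and the filter at 5 FPKM left 10 periportal rises. Against the IL6-iHPCs of the other lines, falls numbered 15 in sterol synthesis, 6 in biliary markers, 21 in DNA replication, 9 in cell cycle entry, 6 in the EGF and HGF group and 7 in mesenchymal genes. For the maturation of clone-1, no other list with at least 10 calls in 1 direction moved by over 1.5 times. Counts of the other comparisons that moved with quantile normalization are given beside them above. The cause of these shifts was not tested.

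Against the IL6-iHPCs of the other lines the sign turned for Gcnt3 (0.99), Wfdc2 (2.85), Cebpd (0.40), Fgf21 (0.56), Apom (1.13), Krt7 (1.94), Grb10 (0.35), Saa3 (1.78), Fam107a (0.042), Krt19 (0.74), Dusp6 (0.44), Hnf4a (0.52), Barx2 (1.09) and Elf3 (1.21), all higher there. It also turned for Onecut1 (-0.43), Ccnd2 (-0.18), Fn1 (-0.18), Mup20 (-2.06), Mup3 (-2.27), Prox1 (-0.74), Rora (-0.53), Il6st (-0.70), Osmr (-0.86), Stat3 (-0.51) and Egfr (-1.31), all lower there. Genes with changes near 0 turned under quantile normalization and voom, Hnf4a (0.070 and 0.43), Glul (0.16 and 0.31), Barx2 (0.23 and 0.21) and Etv5 (0.27 and 0.25). Fkbp5 was -0.023 after rescaling to TPM. With 1 sample left out Fkbp5 ranged from -0.022 to 0.054 and Rora from -0.10 to 0.17.

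The replicate numbers do not mark a known pairing. The correlation of same-numbered samples' deviations from their group means was 0.12, -0.07 and 0.24, and not every sample correlated best with its own number. With the replicate number as a block 718 genes rose and 2179 fell, so it changed no count by over 1.5 times.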
